A study of Mus musculus with 8 samples.

Results

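The IP3 receptors (*Itpr1*, *Itpr2*, *Itpr3*) and the ryanodine receptors (*Ryr1*, *Ryr2*, *Ryr3*) are the channels through which calcium leaves the endoplasmic reticulum. IP3 receptors open when phospholipase C cleaves membrane lipid into inositol trisphosphate (IP3), and ryanodine receptors open mainly when cytosolic calcium itself rises, so that a small entry of calcium can be amplified. In hippocampal neurons both families shape dendritic calcium signals and synaptic plasticity. BTBR mice carry the tufted (tf) allele of *Itpr3*, a small in-frame deletion in the coding sequence, which makes the family of interest in this strain.

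Every probe of a single-color Agilent mouse array that the array files name for 1 of these 6 genes was taken, which gave 21 of 41174 probes. Of these, 18 passed the filter on dim signals, and all 6 genes had at least 1 probe that passed. Whole hippocampi came from 4 wild-type C57BL/6J mice (B6) and 4 BTBR T+ Itpr3tf/J mice (BTBR), all male, 5 months old and without drug treatment, with 1 mouse per array. One label of the BTBR samples names C57BL/6J as their background, and the groups were taken from the genotypes, as in titles and source names. The strains differ at many loci besides *Itpr3*, no array carries the tf allele on a B6 background, and the effect of the allele and that of the rest of the genome cannot be told apart. Each of 2 slides carried 2 arrays per strain, replicates 1 and 2 on the first and the others on the second. Levels below are normalised log2 intensities, differences are BTBR minus B6 on the log2 scale, and levels of different probes cannot be set against each other because probes differ in brightness.

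The array reads each gene through sequences of 60 bases. Positions are those of the mm9 build in the array files, and a probe whose ends lie more than 60 bases apart on the genome crosses an intron and so matches spliced transcript. The array files hold no annotation of exons, UTRs or protein domains, and the place of a probe in these was not tested. Shown first are 6 whole probes that the results turn on, of which the 3 of *Ryr1* and *Ryr2* and the *Itpr2* probe cross an intron. Capitals mark the 10 bases that the *Ryr2* and the *Ryr3* probe share, the longest run shared by any of the 21 probes with another.
*Itpr2* A_51_P480408 (chr6:146319897-146321646, minus strand): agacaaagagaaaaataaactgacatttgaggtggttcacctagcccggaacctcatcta
*Ryr1* A_51_P416074 (chr7:29789818-29790524, minus strand): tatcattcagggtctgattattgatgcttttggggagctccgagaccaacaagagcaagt
*Ryr1* A_52_P391110 (chr7:29788789-29789487, minus strand): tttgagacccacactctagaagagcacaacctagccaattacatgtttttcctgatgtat
*Ryr2* A_51_P391655 (chr13:11650372-11652843, minus strand): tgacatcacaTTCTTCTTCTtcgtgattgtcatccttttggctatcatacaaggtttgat
*Ryr3* A_52_P261858 (chr2:112476718-112476777, minus strand): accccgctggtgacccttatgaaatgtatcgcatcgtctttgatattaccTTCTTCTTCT
*Ryr3* A_52_P109916 (chr2:112492718-112492777, minus strand): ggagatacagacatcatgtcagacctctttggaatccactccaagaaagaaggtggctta

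The remaining probes on which the results turn are the most 3′ probes of their genes, shown by their last 30 bases. Capitals mark AATAAA, the letters of the usual polyadenylation signal, searched on the probe strand in the last 30 bases of every probe. The *Itpr3* probe was the only 1 of the 21 to hold these letters within its last 30 bases, as 3.1% of all probes do.
*Itpr1* A_51_P269663 (chr6:108501020-108501079, plus strand): agtcaagtttgtaaatgcatacctaaaaat
*Itpr3* A_51_P104897 (chr17:27259102-27259161, plus strand): ttaattgccttaAATAAAttaatagactcc
*Ryr2* A_52_P440709 (chr13:11645812-11645871, minus strand): gttgatccacatgggagaactttcgtgata
*Ryr3* A_52_P328350 (chr2:112471931-112471990, minus strand): tttccatggtacttgctagtgactgtctcc

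No receptor gene changed between the strains by limma. Of the 18 receptor probes, 0 were higher and 0 were lower in BTBR at an adjusted p under 0.05, where 3.31% of all 27981 tested probes were called up and 4.3% down. No receptor probe reached an unadjusted p under 0.05 either, against 18.5% of all tested probes, and the rank product, the test named in the study's methods, called 0 receptor probes and 3.93% of all probes. The arrays of the strains overlapped at all 18 receptor probes, whereas they did not overlap at 14.2% of all tested probes. Differences ran from -0.31 to 0.20 with a median of -0.04, 7 above 0 and 11 below, and the median over all tested probes was 0.01. The median absolute difference was 0.099 at the receptor probes and 0.101 over all tested probes. Over the 18 probes the 95% intervals of the differences lay between a fold of 0.609 and one of 1.53, so that larger shifts lie outside the interval of every tested probe. An exact permutation test over the 8 arrays gave 0.17 as its lowest two-sided p for any tested receptor probe, where 4 arrays against 4 can reach 0.029. Nothing in the labels ties mice to litters, and the p-values measure the spread between these 8 mice.

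**Figure D1:**
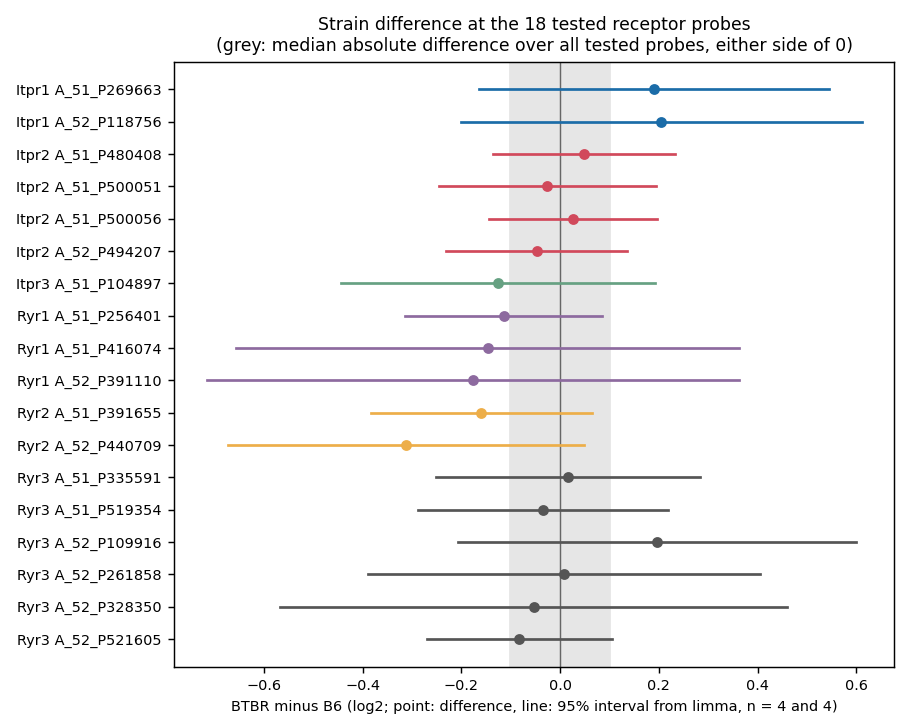
BTBR minus B6 (log2, horizontal axis) at each of the 18 tested receptor probes (vertical axis); points are differences of the means of 4 and 4 arrays, lines are 95% intervals from limma, and the grey band is the median absolute difference of all tested probes, 0.101, on either side of 0. Every interval includes 0, and the points run from -0.31 at the *Ryr2* probe A_52_P440709 to 0.20 at the *Itpr1* probe A_52_P118756.

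*Itpr3*, the gene that carries the tf allele, was read by 1 probe, well above background on all 8 arrays. Its level was 11.53, 11.16, 11.35 and 10.92 in B6 replicates 1 to 4, and 10.88, 11.08, 11.23 and 11.26 in BTBR replicates 1 to 4. The lowest array was BTBR replicate 1 and the highest B6 replicate 1, with the other 6 interleaved. The difference was -0.13 ± 0.14 (SE, n = 4 and 4, adjusted p = 0.71 by limma), with a 95% interval from 0.735-fold to 1.14-fold. It was -0.36 within slide 1 and 0.11 within slide 2, so that its direction turned between the slides. Without B6 replicate 1, 2 or 3 the difference was -0.03, -0.16 and -0.09 in turn, and its sign was turned under 2 of the 23 alternatives. The transcript of *Itpr3* was thus measured at a level that did not differ beyond the spread between mice. The probe reads the amount of transcript, and whether it overlaps the deleted bases was not tested, so it checks nothing about the lesion itself.

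*Itpr1*, the main IP3 receptor of neurons, was read by a pair of probes 322 bases apart. Probe A_51_P269663 stood at 15.67, 15.88, 15.66 and 15.43 in B6 and at 15.60, 16.30, 15.80 and 15.70 in BTBR. Probe A_52_P118756 stood at 15.59, 15.92, 15.62 and 15.43 in B6 and at 15.84, 16.36, 15.58 and 15.61 in BTBR. BTBR replicate 2 was the highest array at both probes and B6 replicate 4 the lowest. The differences were 0.19 ± 0.16 and 0.20 ± 0.18 (SE, n = 4 and 4), with adjusted p of 0.60 and 0.63. Within slide 1 they were 0.18 and 0.35, within slide 2 they were 0.20 and 0.06. BTBR replicate 2 is also the array with the highest striatal markers, 2.79 above the B6 mean on the log2 scale as the mean of 8 of 8 markers tested, and B6 replicate 2, the second highest at both *Itpr1* probes, stood 1.43 above it. The part of striatal tissue in the *Itpr1* level was not tested. With BTBR replicate 2 set aside, the other BTBR arrays averaged 15.70 at A_51_P269663 and 15.67 at A_52_P118756, against B6 means of 15.66 and 15.64. Without BTBR replicates 1 and 2, an alternative chosen after seeing the data, the differences were 0.09 and -0.05.

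*Itpr2*, the IP3 receptor known best from astrocytes and heart, had 6 probes, of which 4 passed the filter. The brightest, A_51_P500051, stood at 12.47, 12.55, 12.69 and 12.67 in B6 and at 12.40, 12.69, 12.74 and 12.45 in BTBR. Its neighbour A_51_P500056 just upstream stood at 11.03, 11.12, 11.27 and 11.24 in B6 and at 11.14, 11.26, 11.25 and 11.11 in BTBR. Strains were interleaved at both. These were among the tightest values of the family: the differences were -0.03 ± 0.10 and 0.03 ± 0.07 (SE, n = 4 and 4, adjusted p of 0.92 and 0.90), and the intervals reached from 0.844-fold to 1.15-fold over the pair. The most 3′ probe A_52_P494207 and the intron-crossing probe A_51_P480408 differed by -0.05 ± 0.08 and 0.05 ± 0.08, with adjusted p of 0.82 at both. The astrocyte markers, 8 of 8 tested and 0 called, averaged between -0.24 and 0.02 relative to the B6 mean over the 8 arrays, as a mean of the list on each array. Of the probes that failed the filter, A_51_P468269 exceeded background clearly on 0 arrays and A_52_P443988 on 1 array of each strain, so that neither gives a fold.

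*Ryr1*, the ryanodine receptor of skeletal muscle that neurons also express, had 3 probes. The 3′ probe A_52_P391110 stood at 10.87, 10.40, 10.24 and 10.61 in B6 and at 9.67, 10.79, 10.34 and 10.62 in BTBR. Probe A_51_P416074, 1029 bases upstream on the genome, stood at 10.66, 10.23, 10.09 and 10.38 in B6 and at 9.54, 10.62, 10.17 and 10.45 in BTBR. BTBR replicate 1 lay below every other array at both probes, and the 7 others were interleaved. The differences were -0.18 ± 0.24 and -0.15 ± 0.22 (SE, n = 4 and 4), with adjusted p of 0.77 and 0.80. Without BTBR replicate 1 they were 0.05 and 0.07, and without BTBR replicates 1 and 2 they were -0.05 and -0.03. Both probes gave the 8 arrays the same order (Spearman's rho = 1, Pearson's r = 0.998, exact permutation p = 5e-05 and 2.5e-05 over 8 arrays, the latter the smallest the test can give, adjusted 0.002 and 0.001 over 41 relations, r = 0.992 without the 2 arrays farthest from the median). The dim upstream probe A_51_P256401 did not follow them (r = -0.05 and -0.04, rho = 0.14 for each, exact permutation p from 0.75 to 0.94) and differed by -0.11 ± 0.09 (adjusted p = 0.57). Skeletal muscle markers, 6 of 7 tested with *Ckm* not above background often enough to test, summed to 3858 to 4519 intensity units in B6 and 3848 to 4384 in BTBR.

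*Ryr2*, the receptor of cardiac muscle and the most widely expressed one in brain neurons, gave the largest difference of the family. Its 3′ probe A_52_P440709 stood at 12.38, 12.68, 12.68 and 12.89 in B6 and at 12.13, 12.13, 12.35 and 12.76 in BTBR. Probe A_51_P391655, 4560 bases upstream on the genome, stood at 8.52, 8.40, 8.61 and 8.73 in B6 and at 8.25, 8.31, 8.49 and 8.57 in BTBR. BTBR replicates 1, 2 and 3 were below all B6 arrays at the 3′ probe, and BTBR replicates 1 and 2 at the other. BTBR replicate 4 lay among the B6 arrays at both, and B6 replicate 4 was the highest of all. The differences were -0.31 ± 0.16 and -0.16 ± 0.10 (SE, n = 4 and 4), adjusted p 0.35 and 0.46, exact permutation p 0.17 at each. They were -0.40 and -0.18 within slide 1 and -0.23 and -0.14 within slide 2, and both stayed below 0 under all 23 alternatives. With slide as a block A_51_P391655 reached an unadjusted limma p of 0.035 and was not called. The 3′ probe came closest to a call without BTBR replicate 4, at -0.45 with an adjusted p of 0.078. Without BTBR replicates 1 and 2 the differences were -0.10 and -0.04. The dentate granule markers, 8 of 8 tested and 1 called down, stood at -0.99 and -1.65 in those arrays relative to the B6 mean. They stood at -0.25 and -0.24 in BTBR replicates 3 and 4, and at 0.42, -0.48, -0.08 and 0.14 in B6 replicates 1 to 4. B6 replicate 1, the highest of these, was the lowest B6 array at the 3′ probe. CA3 markers, 5 of 7 tested and 0 called, stood at -0.41, -0.38, -0.15 and -0.33 in BTBR replicates 1 to 4. In B6 they lay between -0.15 and 0.15. CA1 markers stood at -1.05, -0.93, 0.12 and 0.09 in BTBR replicates 1 to 4. The part of these cells in the *Ryr2* level was not tested. Cardiac markers, 5 of 6 tested with *Myl7* left out as too dim, summed to 2152 to 3953 intensity units in B6 and 2383 to 4859 in BTBR. The remaining probe, A_52_P10205, lies far upstream and was well above background on 2 B6 and 0 BTBR arrays, at means of 7.898 and 7.730. The strains overlapped there too (exact permutation p = 0.11, n = 4 and 4).

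*Ryr3*, which is low in most tissues and is expressed in the hippocampus, had 6 probes, all of which passed the filter. The 3′ probe A_52_P328350 stood at 12.87, 12.63, 12.72 and 13.12 in B6 and at 12.08, 12.82, 13.20 and 13.02 in BTBR. Probe A_52_P261858, 4787 bases upstream on the genome, stood at 10.69, 10.62, 10.67 and 11.08 in B6 and at 10.31, 10.701, 11.07 and 11.00 in BTBR. Probe A_52_P109916 stood at 9.04, 8.85, 9.15 and 9.35 in B6 and at 8.78, 9.33, 9.60 and 9.46 in BTBR. All 3 placed BTBR replicate 1 lowest, and BTBR replicate 3 lay above BTBR replicates 1, 2 and 4. Their differences were -0.05 ± 0.23, 0.01 ± 0.17 and 0.20 ± 0.18 (SE, n = 4 and 4), with adjusted p of 0.93, 0.99 and 0.64. Without BTBR replicate 1 they were 0.18, 0.16 and 0.36, of which the last had an unadjusted p of 0.019 and an adjusted p of 0.17. Without BTBR replicates 1 and 2 they were 0.27, 0.27 and 0.43, with adjusted p of 0.39, 0.37 and 0.14, so that the sign at the 3′ probe was turned in both fits. The 3 probes followed each other over the 8 arrays (r from 0.868 to 0.956, rho from 0.905 to 0.952, adjusted exact permutation p from 0.002 to 0.040 for r and from 0.023 to 0.047 for rho, r from 0.769 to 0.942 without the 2 farthest arrays). The dim probes A_51_P335591, A_51_P519354 and A_52_P521605 differed by 0.02, -0.04 and -0.08, with adjusted p of 0.97, 0.91 and 0.68.

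**Figure D2:**
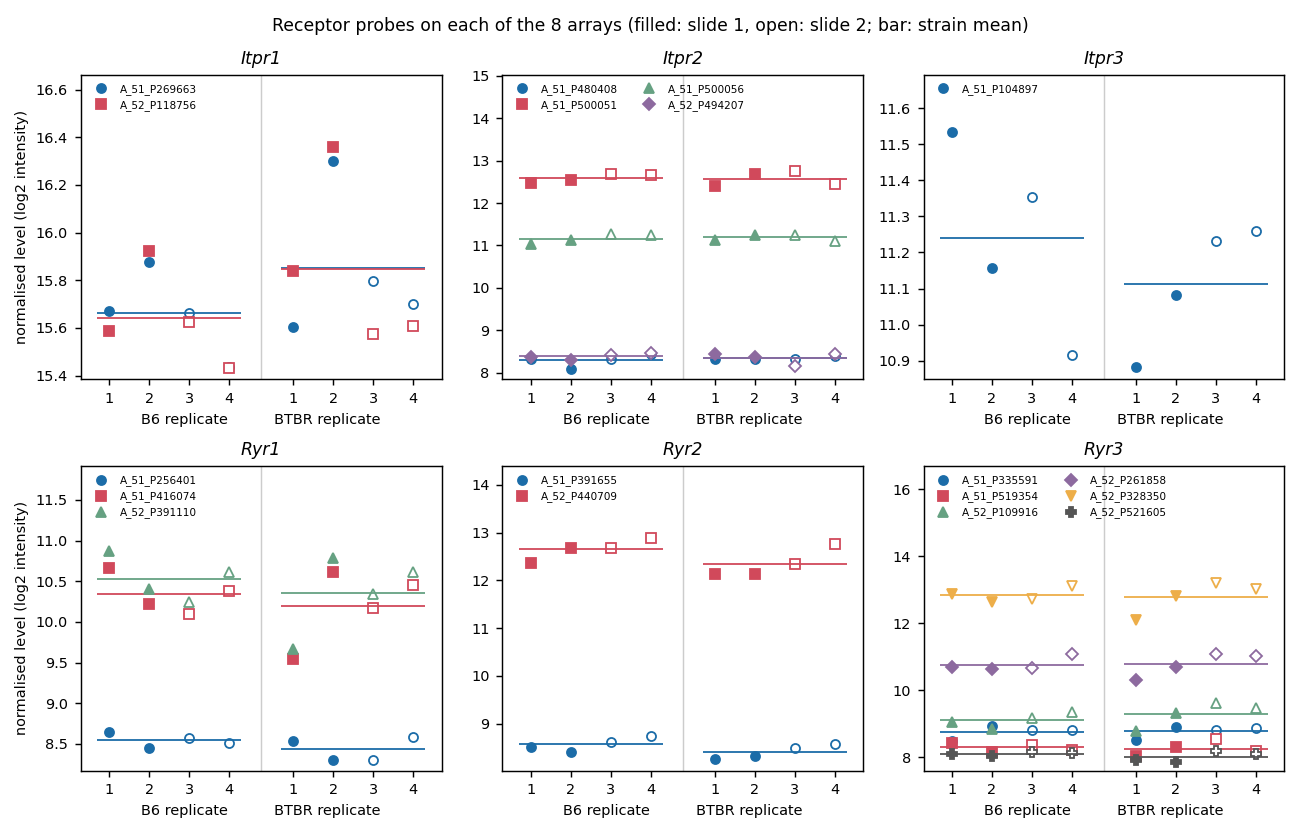
Normalised level (log2 intensity, vertical axis) of each tested probe on the 4 B6 and 4 BTBR arrays (horizontal axis), 1 panel per gene; filled symbols are slide 1, open symbols slide 2, and bars are strain means. At the bright *Ryr1* and *Ryr3* probes BTBR replicate 1 sits lowest (9.67 at *Ryr1* A_52_P391110, 12.08 at *Ryr3* A_52_P328350), and at both *Itpr1* probes BTBR replicate 2 sits highest (16.30 and 16.36).

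Tested probes of 1 gene differed in sign for *Itpr2* and *Ryr3*, and each of their intervals included 0.

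The 2 families were compared on a single array, BTBR replicate 1, where most receptor probes had their lowest level. The counts there come from the same values that set this array apart. In BTBR replicate 1 all 11 tested ryanodine receptor probes lay below their B6 mean and 9 of them below all 4 B6 arrays, against 4 and 2 of the 7 IP3 receptor probes. Over all tested probes 29.6% lay below all 4 B6 arrays on this array. Several of the 11 probes read the same transcript and are no independent counts. Of the 18 receptor probes 10 had their lowest level there, as did 15.04% of all tested probes. The median deviation of the 18 from the B6 means was -0.26 in this array and between -0.09 and 0.07 in the 7 others.

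The same array stood apart in markers of neighbouring tissue, whose deviations are given throughout as the mean over the list on an array. The thalamus markers, 9 of 9 tested, summed to 13107 to 17797 intensity units in B6 and 15370 to 103651 in BTBR and were 2.53 above the B6 mean on the log2 scale in BTBR replicate 1. Choroid plexus markers, 7 of 8 tested, were 1.58 above it there, and CA1 markers, 7 of 7 tested, stood at -1.05. In BTBR replicate 2 striatal markers stood at 2.79, choroid plexus at 1.43, CA1 at -0.93 and dentate granule markers at -1.65. Of these 5 lists only the dentate granule markers had a called gene, *Stxbp6*, which was lower in BTBR. In bulk tissue a smaller share of a cell type and less RNA per cell cannot be told apart, and the part of dissected tissue in the receptor levels was not tested. Replicate arrays correlated at 0.992 to 0.996 within B6 and at 0.982 to 0.993 within BTBR, and the SD of the receptor probes was larger in BTBR at 14 of 18.

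**Figure D3:**
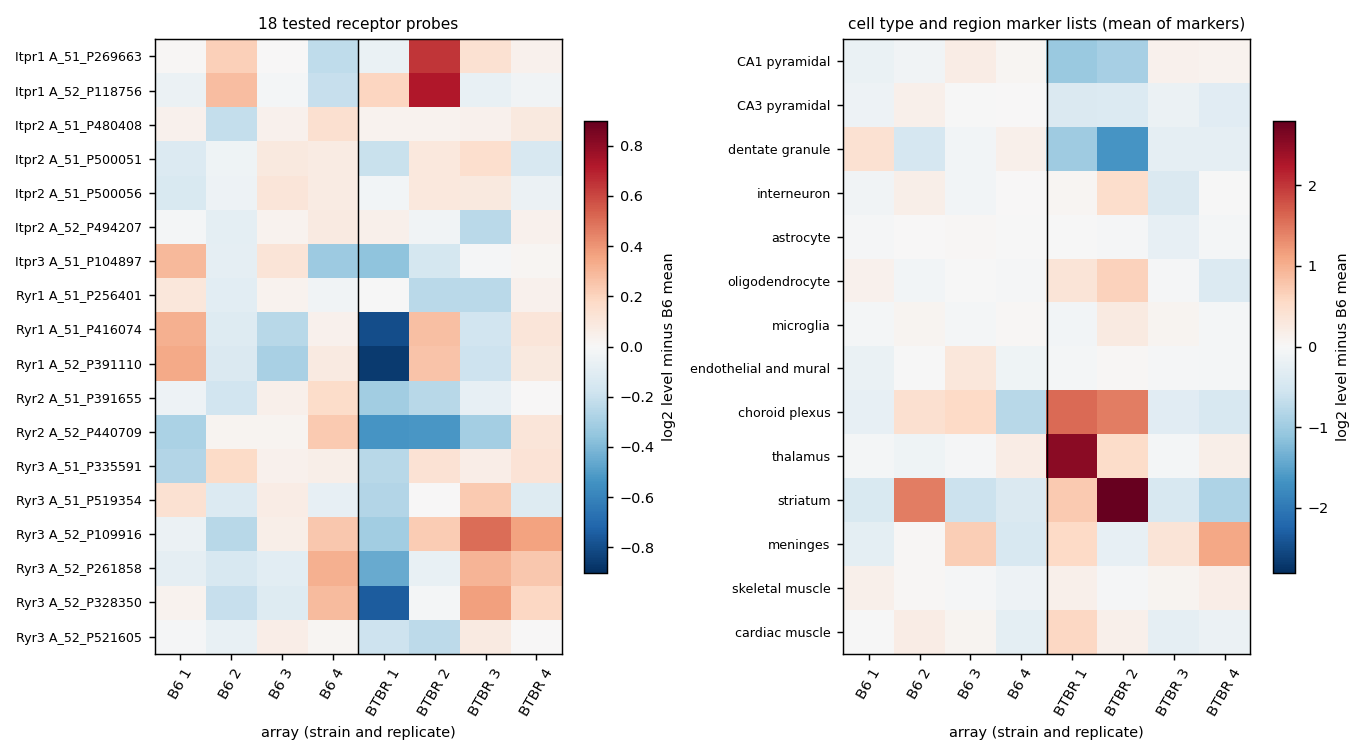
Log2 level minus the B6 mean (color scale) on each array (horizontal axis) for the 18 tested receptor probes (left) and for the mean of each marker list (right). In BTBR replicate 1 the bright *Ryr1* probes and the tested *Ryr2* and *Ryr3* probes are low, and thalamus markers stand 2.53 above the B6 mean. BTBR replicate 2 shows high *Itpr1* probes and striatal markers 2.79 above the B6 mean.

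Within slides, where 2 arrays of each strain were compared with the spread pooled over both, differences at the 18 probes ran from -0.41 to 0.35 on slide 1 and from -0.23 to 0.28 on slide 2. They had the same sign on both slides at 6 probes, which were both *Itpr1* probes, both *Ryr2* probes, *Ryr1* A_51_P256401 and *Ryr3* A_52_P109916. No test of the difference between slides reached an unadjusted p under 0.05 (lowest adjusted p = 0.55 by limma).

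**Figure D4:**
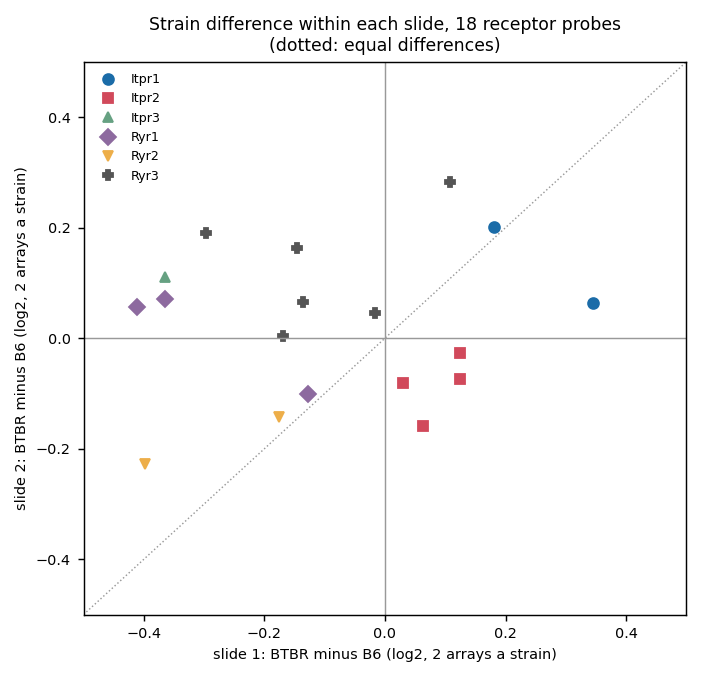
BTBR minus B6 (log2) within slide 1 (horizontal axis) against that within slide 2 (vertical axis) for the 18 tested receptor probes, 2 arrays a strain on each slide. *Ryr2* lies in the lower left with -0.40 on slide 1 and -0.23 on slide 2 at its 3′ probe, and *Itpr3* and the bright *Ryr1* probe A_52_P391110 lie at -0.36 and -0.41 on slide 1 and at 0.11 and 0.06 on slide 2.

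Between genes the 15 pairs of brightest probes gave no correlation over the 8 arrays that passed adjustment over the 41 relations computed. The highest was that of *Ryr1* with *Ryr3* (r = 0.71, rho = 0.38, exact permutation p = 0.061 and 0.36, adjusted 0.31 and 0.73), and without BTBR replicate 1 and B6 replicate 1 it was 0.17. The value rested on those arrays. *Itpr1* and *Ryr2* gave the 1 negative value, r = -0.52 (rho = -0.24, p = 0.18 and 0.58, adjusted 0.46 and 0.88), which was 0.41 without BTBR replicate 2 and B6 replicate 4. Within genes 4 of 26 pairs passed adjustment, all of them the *Ryr1* and *Ryr3* pairs given above.

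The genes most like each receptor after subtraction of the strain means, over the 8 arrays and as a description, were *Phactr1* (r = 0.995) and *Pthlh* (0.983) for *Itpr1*, *N4bp3* (0.985) and *Smurf1* (0.973) for *Itpr2*, and *Celf3* (0.980) and *Id2* (0.976) for *Itpr3*. For *Ryr1* they were *Krt9* and *Psmg4* (0.974 each), for *Ryr2* they were *Glipr1* (0.990) and *Pcnx* (0.986), and for *Ryr3* they were *Uqcr11* (0.996) and *Gm10336* (0.992). These are the highest of the named probes tested, and all share the same 8 arrays. Probes with r over 0.9 numbered 29 for *Itpr3* and 409 for *Ryr3*, the fewest and the most of the 6.

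Around the receptors, 80 genes that make and remove IP3, bind the receptors, hold calcium in the store or refill it were examined by their brightest probe. Of these 78 had a probe by name and 74 were tested. By limma 2 genes rose (2.70%, against 3.49% of all 18398 genes tested) and 1 fell (1.35%, against 4.33%). The median difference was 0.04, against 0.01 over all genes, and 44 genes were higher and 30 lower.

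Of the genes that produce IP3 0 of 14 were called. *Plcb4*, a phospholipase C of Gq-coupled receptors, had the largest difference at 0.73 ± 0.34 (SE, n = 4 and 4, adjusted p = 0.31), 1.27 within slide 1 and 0.18 within slide 2. Of the genes that remove it 1 of 13 tested was called. *Itpka*, the neuronal kinase that phosphorylates IP3 and bundles actin in dendritic spines, stood at 17.34, 17.06, 17.21 and 17.34 in B6 and at 15.80, 16.14, 16.76 and 16.80 in BTBR. All 4 BTBR arrays lay below all 4 B6 arrays, and *Itpka* fell by 0.86 on the log2 scale (SE 0.21, adjusted p = 0.043). The 2 lowest values were those of BTBR replicates 1 and 2, where CA1 markers stood at -1.05 and -0.93 and dentate markers at -0.99 and -1.65. The difference was -1.23 within slide 1 and -0.50 within slide 2, and without those arrays it was -0.47 with an adjusted p of 0.036. Of the 8 fits that each left out 1 array, the call held without BTBR replicate 3 or 4 and was lost in the other 6, with adjusted p from 0.054 to 0.12. *Impa2*, an inositol monophosphatase, differed most among the uncalled, by 0.46 ± 0.15 (adjusted p = 0.13).

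Of the proteins that bind the receptors 1 of 18 tested was called. *Calm3*, which encodes calmodulin, rose by 0.51 (SE 0.12, adjusted p = 0.038) at its brightest probe, from 15.07, 15.003, 14.88 and 15.23 in B6 to 15.50, 15.28, 15.83 and 15.63 in BTBR. Every BTBR array lay above every B6 array at this probe. The other *Calm3* probes gave -0.16 and 0.44 (adjusted p of 0.51 and 0.43), so that the probes of the gene disagreed in sign. The difference at the brightest was 0.35 within slide 1 (adjusted p = 0.18) and 0.67 within slide 2 (adjusted p = 0.056), and under median centring it was 0.45 with an adjusted p of 0.12. With 1 array left out, the call held without B6 replicate 4 or BTBR replicate 2 and was lost in the other 6 fits, with adjusted p from 0.060 to 0.12. *Mrvi1*, which couples IP3 receptors to cGMP-dependent kinase, had the largest uncalled difference at 0.94 ± 0.39 (adjusted p = 0.24), with arrays that did not overlap, and it was 1.54 within slide 1 and 0.33 within slide 2.

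Of the junctional and luminal proteins 1 of 15 tested was called. *Calr*, the calcium-binding chaperone calreticulin, rose by 0.52 (SE 0.09, adjusted p = 0.010), from 14.64, 14.80, 14.91 and 14.93 in B6 to 15.50, 15.36, 15.15 and 15.34 in BTBR. Its other tested probe rose too, by 0.69 (SE 0.13, adjusted p = 0.010), and the arrays of the strains did not overlap at either. The difference at the brightest probe was 0.71 within slide 1 and 0.32 within slide 2, and without BTBR replicates 1 and 2 it was 0.43 with an adjusted p of 0.073. *Hspa5*, the chaperone BiP, gave 0.57 ± 0.21 (adjusted p = 0.17).

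Of the store refilling genes 0 of 11 were called, with *Sln* (sarcolipin, which restrains the calcium pump) at 0.70 ± 0.39 (adjusted p = 0.40), and of the cyclic ADP-ribose and NAADP genes 0 of 3 tested, with *Cd38*, the enzyme that makes cyclic ADP-ribose, at -0.31 ± 0.14 (adjusted p = 0.29). *Plch2*, a phospholipase C, had a called probe other than its brightest, with a difference of -0.36 (adjusted p = 0.049 by limma).

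**Figure D5:**
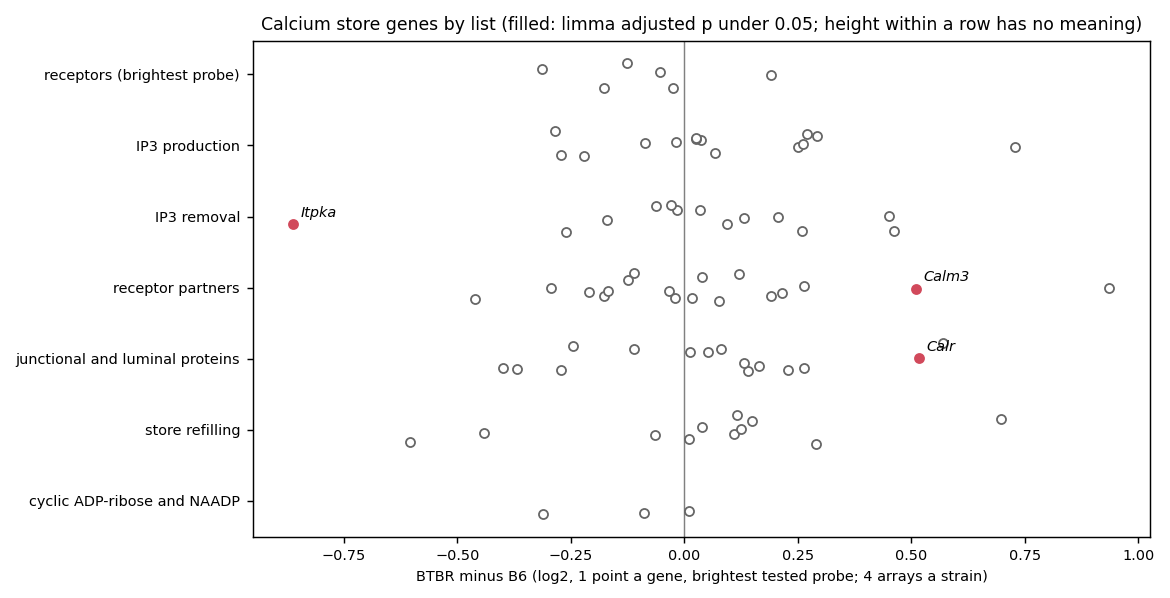
BTBR minus B6 (log2, horizontal axis) of each calcium store gene at its brightest tested probe, grouped by list (vertical axis) with the 6 receptor genes on top; filled points passed limma at an adjusted p under 0.05. *Itpka* at -0.86, *Calm3* at 0.51 and *Calr* at 0.52 are filled, and the 6 receptors lie between -0.31 and 0.19 with none filled.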

How the data were processed

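Hippocampal RNA of 4 B6 and 4 BTBR mice was read on single-color arrays of 45018 spots. The intensity values were deposited by the authors as Agilent Feature Extraction 10.7.3.1 wrote them (per the file headers, the submitters' processing notes name 9.1), with flags and no scaling between arrays. The log2 values of the deposited matrix, used as an alternative, were background subtracted and quantile normalized by the authors, with signal column and offset not given in the sources used here, and their medians lay between 8.82 and 8.83.

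Here the median local background was subtracted from the mean signal (minimum 0.5), an offset of 50 went in before log2, and arrays were quantile normalized. Replicate spots were summarized by their median. Left out were 154 probes with a outlier flag and probes well above background on under 75% of the arrays of both strains, which kept 27981 of 41174 probes. Between 56.8% and 71.9% of probes were well above background on an array, and none was saturated; 8 arrays limit the precision. Strain was fitted alone with limma 3.58.1 (R 4.3.3) and p-values were Benjamini-Hochberg adjusted over all tested probes. Single probes and correlations had exact two-sided permutation tests. The functions were tested on simulated data. Members, gene lists and tests were chosen with earlier results of these data known. Named were all members with every probe, each called list gene (up to 4 with the smallest p in each direction) and the largest uncalled member of each list, by brightest probe, and the 2 genes most like each receptor. The further *Plch2* probe was picked with its value in view. Of 14 marker lists examined, those of tissues whose levels moved with a receptor or in which a receptor is best known are given beside it.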

Additional observations from a re-analysis of the deposited data

Results flagged for a closer look

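Of 36 sets of 4 arrays (18 tested receptor probes in each strain) 2 held an array far from the other 3, where chance marks about 1 in 20. The *Itpr2* probe A_51_P480408 stood at 8.38 in BTBR replicate 4 against a mean of 8.33 in the other BTBR arrays, a gap that is large only because those 3 nearly coincide. The *Ryr3* probe A_52_P261858 stood at 11.08 in B6 replicate 4 against a mean of 10.66 in the other B6 arrays, and BTBR replicates 3 and 4 reached 11.07 and 11.00 at the same probe.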

How the results depend on the processing

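Under the 23 alternatives 0 receptor probes were called in either direction, with a lowest adjusted p of 0.078, while 3.70% to 8.66% of all probes were called. The sign of the small receptor differences was not stable: 5 of 18 probes (*Itpr1* A_51_P269663, *Ryr1* A_51_P256401, both *Ryr2* probes and *Ryr3* A_52_P109916) kept it under all alternatives, and within slide 2 it was turned at 8. With the median level over the tested probes of a gene, which mixes probes of different brightness, 0 of the 6 receptor genes were called by limma (adjusted p from 0.35 to 0.94). All probes called numbered 2129, 1036 within slide 2, 1101 by the rank product and 1490 to 2182 with each array left out. The calcium store genes called, 3 in the main analysis, were 5 with slide as a block, 10 within slide 1, 0 within slide 2, 5 without BTBR replicates 1 and 2 (chosen after seeing the data) and 1 to 3 with each array left out. The genes called changed too. Main calls made up 3 of the 5 with slide as a block, 2 of the 10 within slide 1 and 2 of the 5 without BTBR replicates 1 and 2. The genes called were *Calr*, *Itpripl2* and *Trdn* on the processed signal, and *Calr*, *Mrvi1* and *Rcn2* without BTBR replicate 1. *Calr* kept its call with each array left out, and was not called within slide 2 (adjusted p = 0.23). On the processed signal *Itpka* and *Calm3* were not called (adjusted p of 0.14 and 0.18), nor was *Itpka* with no filter on dim probes (0.058) or within slide 2 (0.16).

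The replicate numbers pair no samples by the labels, and deviations of same-numbered arrays correlated at -0.14, 0.51, -0.10 and 0.39. With the replicate block 1650 probes were called, 0 receptor probes and 0 calcium store genes, at adjusted p of 0.058 for *Itpka* and *Calr* and 0.076 for *Calm3*. The depth is limited by signal over background: 3 of 21 receptor probes did not pass the filter, and with no filter on dim probes 0 of all 21 were called, and the dim probes of *Itpr2*, *Ryr1*, *Ryr2* and *Ryr3* lie close to background. Median centring lowered the share of higher probes among calls from 43.4% to 36.9%.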
